A study of Homo sapiens with 6 samples.

Results

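The genes described here are 10 genes of the NRF2 antioxidant response and of the aldo-keto reductase family, among 19775 genes measured in heated and unheated human tumours. They are NFE2L2, HMOX1, NQO1, GCLM, GCLC, TXNRD1, SRXN1, AKR1B10, AKR1C1 and AKR1C3. The members were taken by name, and all 25 probe sets whose platform annotation names one of them were used, of 54675 probe sets on the array. Of the 25, 23 name a single gene, 1 is shared by NFE2L2 and CSNK2A1, and 1 by AKR1C2 and AKR1C1.

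The tumours were xenografts of HT-29, an established human colon adenocarcinoma line, injected into both femoral regions of Balb/c (nu/nu) mice of 6 to 8 weeks, a strain that lacks a thymus. Expression was measured on 6 one-colour arrays, 2 for each of 3 RNA pools. The treated pool came from tumours heated for 30 min by modulated electro-hyperthermia, an electromagnetic heat treatment, on day 18 and taken 4 h later. The opposite-side pool came from the unheated tumours on the other flank of those animals, and the control pool from tumours labelled as control. All groups share the cell line and the host strain. The tumour regions were dissected from frozen sections, and how many animals went into each pool is not given in the sources used here. Since the 2 arrays of a pool are technical replicates of 1 RNA pool, no test between conditions was made. Each ± value below is the SD of the 4 array-to-array differences between 2 pools, and the number of arrays limits the precision.

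NRF2, the protein of NFE2L2, is a transcription factor that KEAP1 holds in the cytoplasm and marks for degradation. Oxidants and electrophiles modify KEAP1, after which NRF2 enters the nucleus, pairs with small MAF proteins and binds antioxidant response elements of genes for glutathione synthesis, thioredoxin reduction, quinone reduction and haem breakdown. In the human intestine and in colon cancer lines several aldo-keto reductases, enzymes that reduce aldehydes and ketones with NADPH, also belong to the human NRF2 programme. HMOX1 is in addition inducible by haem.

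The array summarises each gene by probe sets rather than by sequence reads. The letters upstream of the start of transcription were read from RefSeq (GRCh38.p14), which gave a window of 300 bases, 250 before and 50 after the start, for 8 of the 10 members. HMOX1 and AKR1B10 had no entry. The core of the antioxidant response element, TGACNNNGC, was searched on both strands and was present in windows of 2 members, GCLM and TXNRD1, against 13.3% of all 35116 windows. The AP-1 letters TGANTCA, which can overlap the element, and the heat shock element (GAA, TTC and GAA again, each set apart by any 2 bases) were found in 0 windows of the members, against 7.71% and 0.49% of all windows. A match is a description of the letters, and a missing match says only that they are not in this window.

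The windows of GCLM and of both annotated starts of TXNRD1 are shown because they hold the element, in capitals. In GCLM it reads GCTTAGTCA and begins 34 bases before the start. At the upstream start of TXNRD1 it was found 2 times, the first reading TGACTTCGC from 99 bases before the start. At the downstream start it reads GCTTTGTCA and begins 102 bases before the start.
GCLM, chr1:93909381-93909680, minus strand: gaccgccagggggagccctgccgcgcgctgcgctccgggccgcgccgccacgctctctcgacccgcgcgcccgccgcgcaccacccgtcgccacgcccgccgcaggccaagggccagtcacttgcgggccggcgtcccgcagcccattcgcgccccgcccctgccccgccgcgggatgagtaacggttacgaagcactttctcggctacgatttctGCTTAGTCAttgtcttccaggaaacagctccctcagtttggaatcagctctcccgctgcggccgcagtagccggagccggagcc
TXNRD1, upstream start, chr12:104215529-104215828, plus strand: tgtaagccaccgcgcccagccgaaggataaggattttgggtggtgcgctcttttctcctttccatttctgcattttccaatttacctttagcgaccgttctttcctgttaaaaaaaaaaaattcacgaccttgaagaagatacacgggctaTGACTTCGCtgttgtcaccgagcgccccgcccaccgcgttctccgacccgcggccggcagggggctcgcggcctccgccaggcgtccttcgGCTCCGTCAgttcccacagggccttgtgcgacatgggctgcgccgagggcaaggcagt
TXNRD1, downstream start, chr12:104286782-104287081, plus strand: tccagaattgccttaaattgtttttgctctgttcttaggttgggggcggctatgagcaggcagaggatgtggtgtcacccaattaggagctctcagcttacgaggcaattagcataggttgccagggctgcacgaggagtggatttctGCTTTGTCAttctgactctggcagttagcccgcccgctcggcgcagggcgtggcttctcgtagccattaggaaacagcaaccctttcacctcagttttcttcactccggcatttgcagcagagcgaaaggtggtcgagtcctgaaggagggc

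The AKR1C pair is shown because both genes stood lower in the treated pool and are related members of one gene family. AKR1C3 has 2 annotated starts, and the one shown has the window more like that of AKR1C1. The windows were identical at 233 of 312 aligned positions (74.7%), against 71.6% for the other AKR1C3 start, not shown, and capitals mark the run of 18 identical bases, the only one of at least 15 between the windows shown.
AKR1C1, chr10:4963165-4963464, plus strand: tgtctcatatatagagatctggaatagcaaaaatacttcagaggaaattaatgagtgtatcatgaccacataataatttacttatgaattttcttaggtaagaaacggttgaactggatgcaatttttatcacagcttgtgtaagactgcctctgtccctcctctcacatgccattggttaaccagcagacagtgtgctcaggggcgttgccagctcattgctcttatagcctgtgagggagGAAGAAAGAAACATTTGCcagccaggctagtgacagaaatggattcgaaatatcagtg
AKR1C3, chr10:5048531-5048830, plus strand: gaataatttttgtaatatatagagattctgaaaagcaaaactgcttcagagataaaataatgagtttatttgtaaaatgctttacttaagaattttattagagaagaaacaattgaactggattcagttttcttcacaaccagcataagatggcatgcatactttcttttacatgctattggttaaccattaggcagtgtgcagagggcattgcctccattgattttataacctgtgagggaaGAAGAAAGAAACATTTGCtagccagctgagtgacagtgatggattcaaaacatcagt

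In the 3 pools the colon epithelial genes that mark HT-29 were present. Of 13 such markers 9 had a pool mean at or above 5 (log2) in each pool, EPCAM, KRT8, KRT18 and KRT20 among them, while CDX2, CDX1, CDH17 and GPA33 lay below 5 on all arrays. A gene is called detected here where the mean of its 6 arrays is at or above 5, which 7003 genes and 12340 probe sets were. Between the 2 arrays of a pool, 95% of detected probe sets differed by at most 0.20 to 0.25. A probe set counted as higher or lower by 1.5-fold when its pool means were that far apart, the 4 array-to-array differences shared one sign, and each array of the pool with more signal reached 5. The same rule was run at 2-fold and, as an alternative, at a minimum difference of 0.32 (log2). The summed linear signal of 10 fibroblast and matrix markers was 818 to 829 on the treated arrays, 689 to 705 on the opposite-side arrays and 380 to 418 on the control arrays, with COL1A2, ACTA2, PDGFRB, LUM and DCN below 5 throughout. For 7 skeletal muscle markers it was 301 to 312 on the treated, 252 on the opposite-side and 241 to 248 on the control arrays, with CKM, MYH2 and DES below 5 throughout. Of the 5 endothelial markers only FLT1 reached 5, and of 6 leukocyte markers only LYZ. The host cells are mouse cells and the probe sets are of human genes, so these levels do not count host cells of any type. Whether the signal came from tumour cells or from mouse transcripts was not tested. HBE1, annotated as embryonic haemoglobin, stood at 11.22 in the treated, 7.06 in the opposite-side and 6.04 in the control pool, while the red cell genes HBB and ALAS2 lay below 5 on all arrays. The ACTB probe set at the 5′ end, which reports on RNA integrity and labelling, differed by 1.12 between the treated and control pools and its 3′ probe set by 0.23. For GAPDH these differences were -0.46 and -0.03. Treated minus opposite side, the 5′ probe sets differed by -0.16 (ACTB) and -0.45 (GAPDH), and opposite side minus control by 1.275 and -0.01. The part of these markers and measures in the results below was not tested.

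Of the 10 members 8 were detected. Each gene is represented by the probe set with the highest mean among those naming it alone. SRXN1 lay just under the limit at a mean of 4.97, AKR1C1 just on it at 5.0002 and GCLM at 5.01, while HMOX1 lay far below. Of the 25 probe sets 12 were detected. In the treated pool 2 of the 8 detected members, AKR1B10 and AKR1C1, were past the 1.5-fold rule as lower than in the control pool on their measured values, and 0 were higher. Of all detected genes 1.5% were lower by this rule and 2.63% higher. AKR1C1 reached the mean of 5 through the opposite-side and control arrays, as both treated arrays lay below 5. Past the 2-fold rule were 0 of the 8 members, against 0.6% of detected genes. In bulk tumour RNA, fewer cells of a type and less RNA per cell cannot be told apart.

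**Figure D1:**
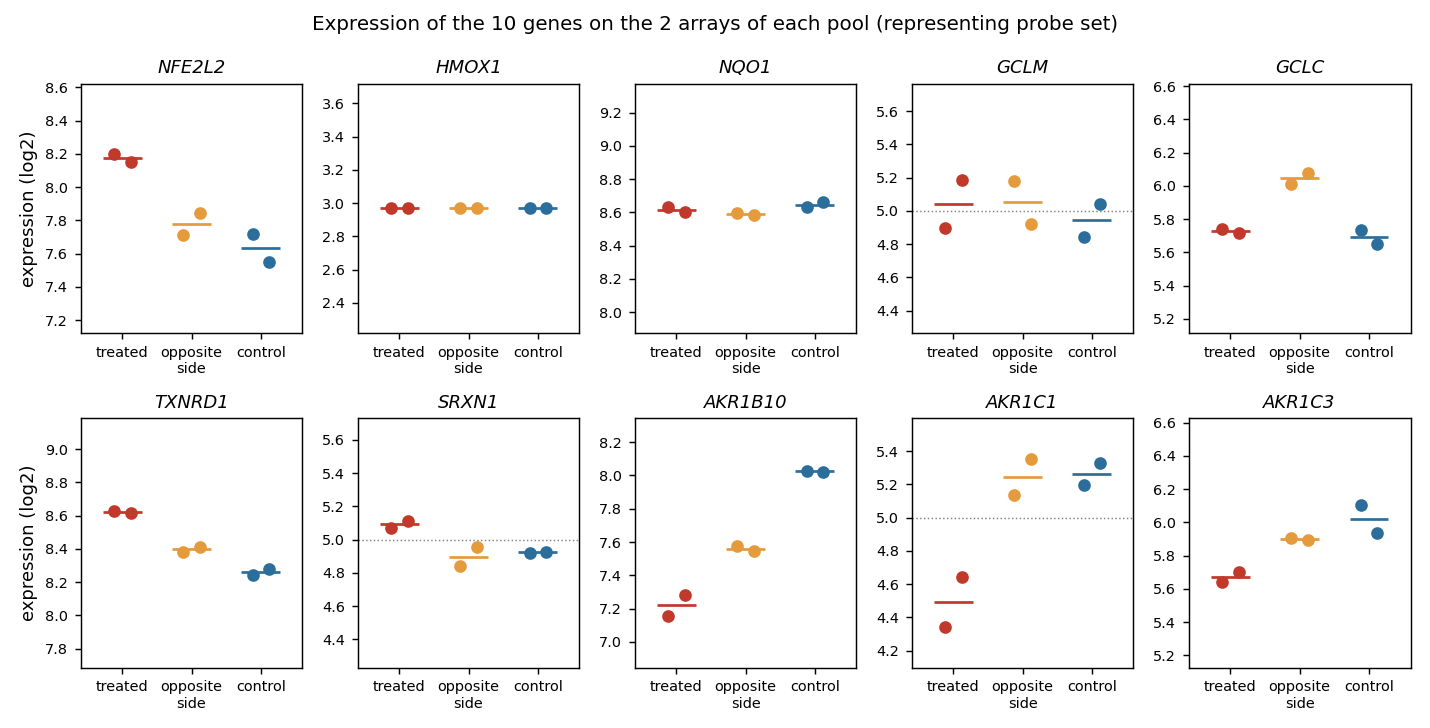
Expression (log2) of the 10 genes on each array, 2 points for a pool in the order treated, opposite side and control, with a line at the pool mean; every panel spans 1.5 log2 units and the dotted line marks 5. AKR1B10 is lowest in the treated pool and highest in the control pool, NFE2L2 and TXNRD1 are highest in the treated pool, and HMOX1 has the same value on all 6 arrays.

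AKR1B10 and AKR1C1, both aldo-keto reductases, had the widest treated minus control differences of the 10 members. AKR1B10 encodes a reductase of aldehydes and retinal that is normally made in the small intestine and colon. Its single probe set read 7.16 and 7.28 in the treated pool, 7.58 and 7.54 in the opposite-side pool, and 8.03 and 8.02 in the control pool. The 3 pools did not overlap, with the treated arrays lowest and the control arrays highest. The treated minus control difference was -0.81 ± 0.071, a 1.75-fold lower level, and only 21 of the 7003 detected genes had a difference as low. Against the opposite-side pool the treated pool differed by -0.34, and the opposite-side pool differed from the control pool by -0.46, neither of them past 1.5-fold.

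AKR1C1 encodes a ketosteroid reductase that inactivates progesterone. Its representing probe set, 204151_x_at, read 4.34 and 4.64 in the treated pool, 5.14 and 5.35 in the opposite-side pool, and 5.20 and 5.33 in the control pool. Both treated arrays lay below all others, whereas the opposite-side and control arrays overlapped. The treated pool differed by -0.77 ± 0.192 from the control pool and by -0.75 ± 0.216 from the opposite-side pool, both past 1.5-fold. Since the treated mean lay below 5, the fold against 5 is a lower bound, and AKR1C1 was at least 1.20-fold lower than in the control pool and at least 1.19-fold lower than in the opposite-side pool.

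Probe sets of the _x_at kind can report near-identical transcripts together, and AKR1C1 cannot be separated from its paralogue AKR1C2 by such a probe set. The AKR1C1 probe set 216594_x_at lay below 5, at 3.29 in the treated pool, 3.42 in the opposite-side pool and 3.57 in the control pool. The AKR1C2 probe sets also lay below 5. One, 244266_at, stayed between 2.375 and 2.38, and the other 2 had treated minus control differences of -0.45 for 209699_x_at and -0.67 for 211653_x_at. The other AKR1C1 probe sets, the one shared with AKR1C2 included, stayed between 2.37 and 2.44 on all arrays. The calls of AKR1C1 and AKR1B10 thus rest on 1 probe set each, of the _x_at and the _s_at kind, and with these kinds left out 0 members passed 1.5-fold.

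AKR1C3, which makes testosterone and prostaglandin F from their precursors, has a probe set of its own. It read 5.64 and 5.70 in the treated pool, 5.90 and 5.90 in the opposite-side pool, and 6.11 and 5.94 in the control pool. No array of the treated pool reached one of another pool, and the differences were smaller than those of its relatives. They came to -0.35 ± 0.105 against the control pool, past 0.32 but not 1.5-fold, and -0.23 ± 0.033 against the opposite-side pool. The opposite-side minus control difference of -0.12 was 0.05 where arrays were set to the same spike-in level.

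NFE2L2 itself, the regulator, was the member with the most positive treated minus control difference. Its representing probe set, 201146_at, read 8.20 and 8.15 in the treated pool, 7.71 and 7.85 in the opposite-side pool, and 7.72 and 7.55 in the control pool. Both treated arrays lay above all others, and the opposite-side and control arrays were not separate. The difference was 0.54 ± 0.100 against the control pool, which is 1.45-fold and just under 1.5-fold, and 0.39 ± 0.082 against the opposite-side pool. Without control array 1 NFE2L2 passed 1.5-fold against the control pool, the only member so added. Of the detected genes 228 (3.26%) had a treated minus control difference as high.

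The other NFE2L2 probe sets were not alike. The probe set 1567013_at, below 5 on all arrays, stood at 4.94 and 4.63 in the treated pool, 4.24 and 4.15 in the opposite-side pool and 4.29 on both control arrays. The shared probe set 1567014_s_at, which also names the kinase subunit gene CSNK2A1, differed by 0.03 between the treated and control pools and by -0.23 between the treated and opposite-side pools. The fourth, 1567015_at, held 2.39 on every array.

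HMOX1 encodes haem oxygenase-1, which breaks haem down to biliverdin, iron and carbon monoxide. Its single probe set held 2.97 on all 6 arrays, with a range of 0, well below the level of detection. The difference between pools of such a probe set carries no information, and a level below the reach of the probe set cannot be told from no expression. Of the undetected probe sets 48.8% had a range of at most 0.01 over the 6 arrays, against 0.13% of the detected ones. The constitutive gene HMOX2 was detected and differed by -0.10, treated minus control.

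The 2 reductase genes for thioredoxin and peroxiredoxin stood higher in the treated pool by less than 1.5-fold. TXNRD1, the cytosolic thioredoxin reductase, read 8.63 and 8.62 in the treated pool, 8.38 and 8.41 in the opposite-side pool, and 8.24 and 8.28 in the control pool. The pools did not overlap. The difference was 0.36 ± 0.023 against the control pool, past 0.32, and 0.22 ± 0.019 against the opposite-side pool. The other TXNRD1 probe set lay between 2.37 and 2.39 on all arrays.

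SRXN1, sulfiredoxin, repairs overoxidised peroxiredoxins. It read 5.07 and 5.11 in the treated pool, 4.84 and 4.95 in the opposite-side pool, and 4.92 and 4.93 in the control pool. Both treated arrays were above the other 4, by 0.17 ± 0.027 over the control pool and 0.19 ± 0.068 over the opposite-side pool. The opposite-side arrays lay on either side of the control arrays. As both of these pools lay below 5, the fold against 5 is a lower bound, at least 1.065-fold in each comparison.

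GCLC, the catalytic subunit of glutamate-cysteine ligase, was represented by 202923_s_at, which read 5.74 and 5.72 in the treated pool, 6.01 and 6.08 in the opposite-side pool, and 5.74 and 5.65 in the control pool. The opposite-side arrays were highest, and the treated and control arrays were not separate. The opposite-side minus control difference of 0.35 ± 0.062 passed 0.32, and the treated minus opposite-side difference was -0.32 ± 0.040.

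The second detected GCLC probe set, 202922_at, read 5.12 and 5.31 in the treated pool, 5.73 and 5.87 in the opposite-side pool, and 5.51 and 5.66 in the control pool. Here too the opposite-side arrays were highest, but the treated arrays were lowest and none overlapped. The treated minus opposite-side difference of -0.58 fell just short of 1.5-fold and passed it when arrays were set to a common median, quantile or spike-in level, or when treated array 2 or opposite-side array 1 was left out. The treated minus control difference was -0.37 on this probe set and 0.03 on 202923_s_at, so the 2 probe sets differ for that comparison.

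GCLM, the modifier subunit, was represented by 203925_at. It read 4.90 and 5.19 in the treated pool, 5.18 and 4.92 in the opposite-side pool, and 4.84 and 5.04 in the control pool. All pools overlapped, and the differences of 0.10 ± 0.204 and -0.01 ± 0.223 against the control and opposite-side pools were within the spread between arrays. The other GCLM probe sets, 234986_at and 236140_at, lay below 5 with overlapping pools, and the third GCLC probe set held 2.37 on every array.

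NQO1, a quinone reductase widely used as a readout of NRF2 activity, had 3 detected probe sets. The representing one, 201468_s_at, read 8.63 and 8.60 in the treated pool, 8.60 and 8.59 in the opposite-side pool, and 8.63 and 8.66 in the control pool. The pools lay within 0.06 of each other. On 210519_s_at the treated minus control difference was -0.19 and the treated minus opposite-side difference -0.285, and on 201467_s_at these were -0.22 and -0.29, with both treated arrays below the other 4 in each case. No NQO1 probe set differed by 0.32 or more in any comparison.

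**Figure D2:**
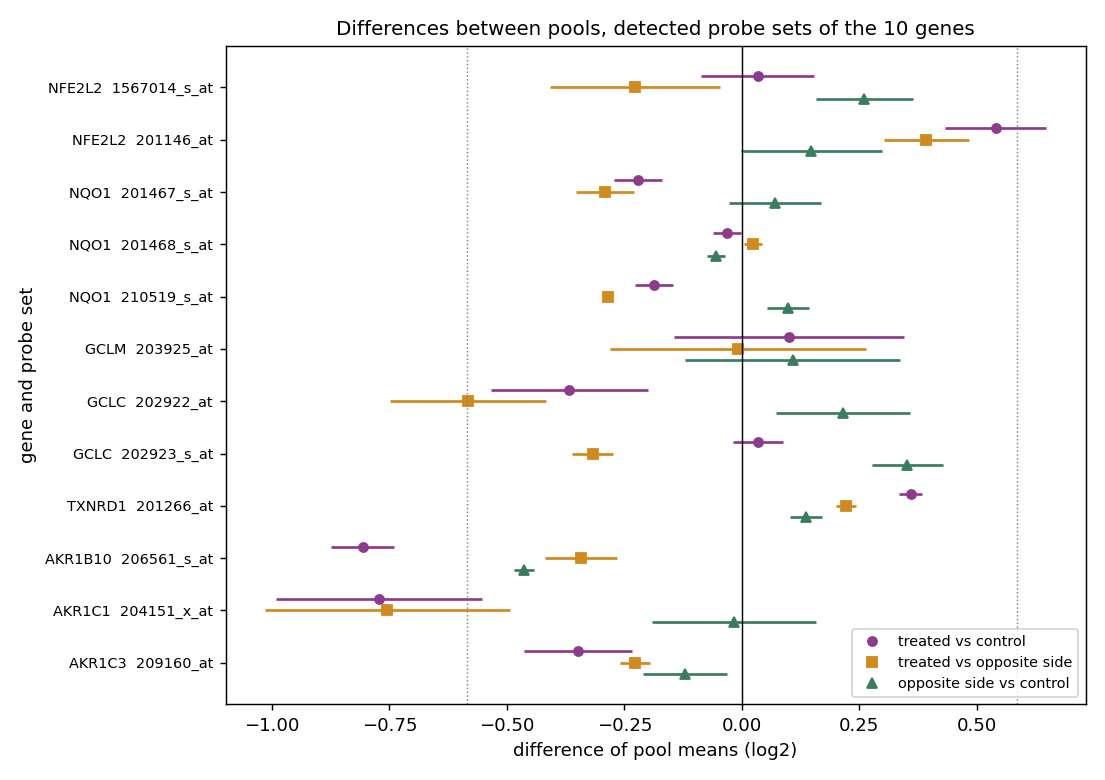
Differences of pool means (log2, x axis) for the 12 detected probe sets of the members; points give the mean difference in the 3 comparisons, bars run from the lowest to the highest of the 4 array-to-array differences, and dotted lines mark 1.5-fold. The AKR1B10 and AKR1C1 probe sets lie beyond the lower line in treated against control, and the 2 GCLC probe sets lie apart in that comparison.

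Read over the members as a whole, treated against control, 2 of the 8 detected members (NFE2L2 and TXNRD1) were above in all 4 array pairs and 4 below (NQO1, AKR1B10, AKR1C1 and AKR1C3), where 34.7% and 40.2% of detected genes were. The median difference over these 8 was 0.0015, and over all detected genes -0.01. Over the 12 detected probe sets of the members it was -0.11, and over all detected probe sets -0.02. Genes with several detected probe sets, such as NQO1, count more than once there. At a minimum difference of 0.32, 5 members passed, with NFE2L2 and TXNRD1 higher and AKR1B10, AKR1C1 and AKR1C3 lower, while 19.5% of detected genes passed in either direction. Among these 5 members NFE2L2 and TXNRD1 thus stood on one side and AKR1B10, AKR1C1 and AKR1C3 on the other. The split was noticed in these values and was not tested. It did not extend to every related gene measured. On their representing probe sets the thioredoxin reductase TXNRD2 differed by -0.11, and the aldo-keto reductases AKR7A2 and AKR7A3 by -0.005 and -0.32.

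Heated and unheated tumours of the same animals gave 1 of the 8 detected members past 1.5-fold. This was AKR1C1, lower in the treated pool on its measured values, as were 0.928% of detected genes. It counts as detected through its opposite-side and control arrays, since both treated arrays lay below 5. With the treated level set to 5 it was at least 1.19-fold lower. At 2-fold 0 members passed, against 0.257% of detected genes. In all 4 array pairs NFE2L2, TXNRD1 and NQO1 were above and GCLC, AKR1B10, AKR1C1 and AKR1C3 below, as were 38.3% and 33.2% of detected genes. A minimum of 0.32 was passed by 3 members, NFE2L2, AKR1B10 and AKR1C1, and by 14.6% of detected genes. NQO1 counts as above here on a difference of 0.02, while its other 2 detected probe sets were below in all 4 pairs. The median difference of the 8 was -0.12, against 0.01 for all detected genes. Over the 12 detected probe sets it was -0.26, against 0.003 for all detected probe sets. The 40 spike-in probe sets were 0.33 higher on the treated arrays by their median. Setting arrays to a common spike-in level shifted the median over detected probe sets by -0.19 in this comparison and by 0.18 in opposite side against control. The differences of NFE2L2, TXNRD1 and SRXN1 then came to 0.20, 0.03 and 0.0043, still positive, and that of NQO1 turned negative, at -0.17.

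The opposite-side pool against the control pool had 0 members past 1.5-fold or 2-fold, against 3.5% and 0.357% of detected genes. In all 4 array pairs GCLC and TXNRD1 were above and NQO1, AKR1B10 and AKR1C3 below, where 34.2% of detected genes were above and 41.9% below. With the common spike-in level the differences of pool means of NQO1 and AKR1C3 were positive instead, at 0.12 and 0.05. A minimum of 0.32 was passed by GCLC and AKR1B10, 2 of the 8, and by 19.2% of detected genes. At the common spike-in level AKR1B10 came to -0.29, short of that minimum, and NFE2L2 to 0.323. The median difference of the 8 was 0.05 and that of all detected genes -0.02. Over the 12 detected probe sets it was 0.10, against -0.02 for all detected probe sets. The comparisons share pools, so the differences of a member in them are not independent of each other.

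**Figure D3:**
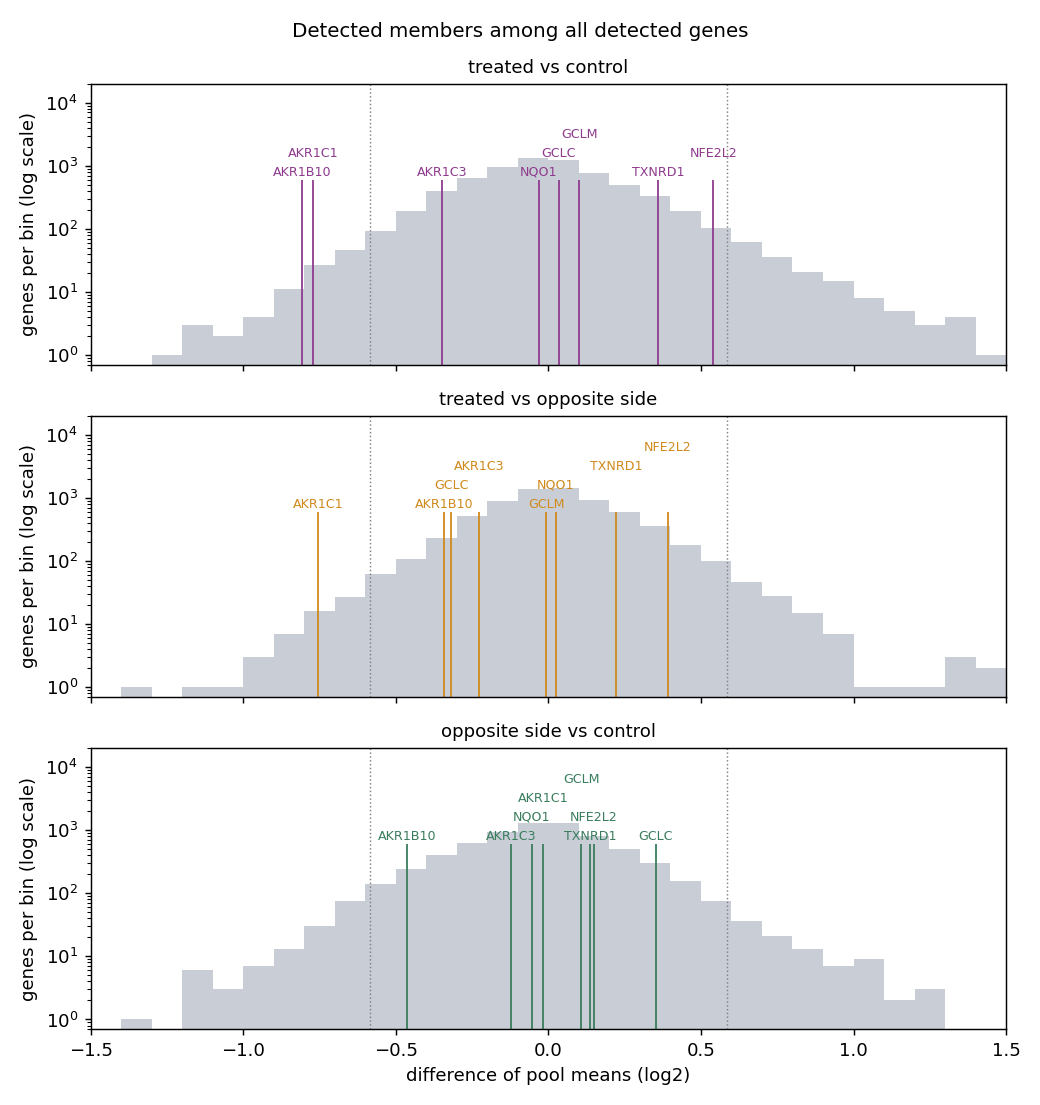
Number of detected genes (log scale) in bins of 0.1 of the difference of pool means (log2) for the 3 comparisons, with the 8 detected members as coloured lines and dotted lines at 1.5-fold; the axis ends at 1.5, beyond which lie 15, 7 and 1 genes from top to bottom. AKR1B10 and AKR1C1 sit in the low tail of treated against control, and the other members lie nearer to the centre.

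The rest of the pathway was taken from 8 lists with 95 genes, of which 87 had a probe set naming them alone and 57 were detected. MAFK, TXNRD3, PRDX5, FTH1, AKR1A1, AKR1B1 and AKR1B15 were among those not analysed here. Treated against control, 0 of the 87 genes passed 1.5-fold in either direction, where 1.6% of all genes did. Detected genes made up 57 of the 87 but only 7003 of all 19775 genes. Of the detected genes 2.63% were higher and 1.5% lower by this rule. The median over the 57 detected genes was -0.05, with 21 above and 28 below in all array pairs. Of all detected genes 34.7% were above and 40.2% below.

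Among regulators of NRF2, BACH1, a repressor that competes for the same elements, had the largest difference. It stood at 5.73 in the treated pool, 5.69 in the opposite-side pool and 5.20 in the control pool, a treated minus control difference of 0.53. The related factor NFE2L3 differed by 0.37 and CUL3, the ubiquitin ligase scaffold that works with KEAP1, by 0.32. KEAP1 differed by -0.17 and the autophagy receptor SQSTM1, itself an NRF2 target, by -0.05, although a further SQSTM1 probe set of the plain _at kind gave -0.62. The list median was 0.16 over 10 detected genes. On its other detected probe set NFE2L3 differed by 0.68, and NFE2L3 and SQSTM1 passed 1.5-fold where _x_at and _s_at probe sets were left out.

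Of the glutathione genes SLC7A11, the cystine importer that feeds the synthesis, differed by 0.33, the lipid peroxide reductase GPX4 by -0.33 and the microsomal transferase MGST3 by -0.23, with a list median of -0.09 over 12 genes. In the thioredoxin list GLRX2 differed by 0.30, PRDX4 by -0.24 and TXNIP by 0.21 (median 0.04 over 10 genes). Of the genes that supply NADPH, the malic enzyme ME1 differed by 0.36, PGLS by -0.35 and IDH1 by 0.10 (median 0.03 over 6 genes). No gene of these 3 lists was past 1.5-fold in the treated against control comparison.

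The carbonyl and quinone list had a median of -0.22 over 6 detected genes, with PTGR1 at -0.39, UGDH at 0.36 and AKR7A3, another aldo-keto reductase, at -0.32. Of the haem and iron genes BLVRB, a biliverdin reductase, differed by -0.33, the ferritin light chain FTL by -0.22 and the transferrin receptor TFRC by -0.14 (median -0.10 over 7 genes). The 3 detected transporters and other targets were below the control pool in all 4 array pairs, as were 40.2% of detected genes. ABCC3, an exporter of conjugates, differed by -0.51, GDF15 by -0.49 and ABCC1 by -0.14. The same 3 genes were above the opposite-side pool in all 4 pairs, by 0.16, 0.14 and 0.19, as were 38.3% of detected genes.

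Other pathway genes passed the rule in the remaining comparisons. SLC40A1, the iron exporter ferroportin, read 8.91 and 8.99 in the treated pool, 9.61 and 9.62 in the opposite-side pool, and 8.87 and 8.85 in the control pool. The opposite-side arrays stood apart, 0.76 above the control pool, and the treated pool was 0.67 below the opposite-side pool on the log2 scale. Its other probe set gave -0.39 for treated minus opposite side and 0.11 for opposite side minus control. ALDH1A1, a retinal dehydrogenase with a 6-array mean below 5, was also lower in the treated than in the opposite-side pool, by a measured -0.74, at least 1.04-fold when the treated level is set to 5. These 2 of 87 pathway genes were lower, against 0.379% of all genes and 0.928% of detected genes.

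Opposite side against control, 2 pathway genes were higher and 2 lower, where 0.531% and 0.855% of all genes were. Of the detected genes 3.5% passed in either direction. The higher genes were SLC40A1 and TXNIP, the thioredoxin-binding protein, at 0.64. The lower genes were ABCC3 at -0.67 and GDF15, a stress cytokine, at -0.63. At the common spike-in level ABCC3 and GDF15 came to -0.49 and -0.46 and no longer passed, while BACH1 at 0.66 and NFE2L3 at 0.62 passed as higher. TXNIP then also passed as lower in the treated than in the opposite-side pool. All 5 ABCC3 probe sets were below the control pool in the opposite-side pool, by -0.16 to -0.98, while the 2 other GDF15 probe sets lay below 5 without a difference between pools.

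For scale, 7 heat shock genes and 7 metallothioneins were set beside the members. All 7 heat shock genes were past 2-fold and higher in both comparisons of the treated pool, where 0.514% of detected genes were against the control pool and 0.214% against the opposite-side pool, with a median of 1.89 against the control pool. HSPA6, the strictly inducible HSP70, read 8.69 and 8.73 in the treated pool, 5.72 and 5.91 in the opposite-side pool, and 4.88 and 4.82 in the control pool. Of the 6 detected metallothioneins, whose genes answer to zinc and to oxidants, MT1F, MT1X and MT2A were past 1.5-fold against the control pool. Their differences were 1.59, 0.94 and 0.71, and 2.63% of detected genes were higher by that rule. The other probe sets of MT1F, below 5, and of MT1X gave 0.42 and 0.43. On their representing probe sets MT1E, MT1G and MT1H differed by 0.07, 0.23 and 0.015. No difference between these lists and the members was tested.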

How the data were processed

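Values for 54675 probe sets were deposited on the log2 scale by the authors, as their range shows (lowest 2.37). GCRMA, a method of background correction, quantile normalization and probe summary, is credited to the submitters' processing notes, with no version. Per the labels, 3 RNA pools were each hybridised to 2 arrays.

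Of the probe sets 41097 named 1 gene, 1801 several and 11777 none in the platform annotation, and 41043 were matched by Entrez identifier to RefSeq symbols. For each gene the probe set with most signal on average, among those naming it alone, stood for it. The 2 arrays of a pool were averaged on the log2 scale. The fold rules, at 2, 1.5 and a minimum difference of 0.32, and the level of 5 are given with the results. Only the 2-fold and 1.5-fold rules were run on simulated data. Differences were planted there in genes above that level, so differences of genes near 5 were not checked. No test between conditions was run. The 10 members, the gene lists, the rules and the alternatives were chosen with earlier results of these data known. Named were all members, the 3 detected genes of each pathway list with the largest treated minus control difference, and list genes past 1.5-fold. HMOX2, KEAP1, SQSTM1, TXNRD2, AKR7A2 and the markers were named after their values were seen. Genes nearest in pattern were those with the smallest Euclidean distance of centred pool means. Promoter windows were aligned globally with Biopython 1.88. Tables were handled with pandas 2.3.3 in Python 3.11.15 and drawn with matplotlib 3.10.9. Alternatives were other detection levels, agreement of array pairs, averaging, scalings between arrays, choices of probe set and leaving out each array.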

Additional observations from a re-analysis of the deposited data

How the results depend on the processing

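Of the 2 calls against the control pool, AKR1B10 stayed past 1.5-fold under every alternative that kept its probe set (differences of -0.87 to -0.74), and AKR1C1 did so without each array in turn (-0.92 to -0.62). Members past 1.5-fold numbered 2 treated against control and 1 treated against opposite side. They numbered 1 and 0 with a detection level of 6, 1 and 0 with the median over a gene's probe sets, 0 and 0 without _x_at and _s_at probe sets, and 5 and 3 with the minimum difference of 0.32. Opposite side against control, 2 members passed that minimum (GCLC and AKR1B10) in place of 0. Leaving out each array gave 2 to 3, 1 and 0 members in the 3 comparisons. The third was NFE2L2, without control array 1.

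Member probe sets past 1.5-fold were 2 and 1 in the comparisons of the treated pool. With a detection level of 6 they were 1 and 0. Treated against opposite side they were 2 with a detection level of 4 and under each of the 3 scalings, and 1 to 2 without each array (2 to 3 treated against control). The extra probe set treated against opposite side was 202922_at of GCLC (without treated array 2 or opposite-side array 1), and at level 4 1567013_at of NFE2L2. Treated against control it was 201146_at of NFE2L2, without control array 1.

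Pathway genes past 1.5-fold were 0, 2 and 4 of 87. With the minimum of 0.32 they were 13, 6 and 11 of the 87. All 13 were among the 57 detected pathway genes, and so were the 6 and the 11 apart from ALDH1A1. Of all detected genes 19.5%, 14.6% and 19.2% passed that minimum, shares to be read against the 57 and not the 87. Treated against control they were 2 without _x_at and _s_at probe sets (NFE2L3 and SQSTM1). Treated against opposite side they were 1 with level 6 and 1 with the median over probe sets. Opposite side against control they were 2 under either choice of probe set.

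The median over all 10 members, 0.02 treated against control, was -0.008 with the median over probe sets and 0.0503 without _x_at and _s_at probe sets (-0.0085 to 0.012 leaving out arrays). Treated against opposite side it was -0.0038, and -0.193 with the spike-in scaling (-0.0762 to 0.0143 leaving out arrays). Opposite side against control it was -0.0085, 0.0354 with quantile normalization, 0.167 with the spike-in scaling and 0.056 without _x_at and _s_at probe sets. The causes were not tested.

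Agreement judged only on same-numbered arrays, a form of replicate block for technical arrays that share nothing but a number, left these counts as they were, with 2, 1 and 0 members past 1.5-fold. The array numbers do not pair animals. With 1 pool a group, the spread between tumours was not measured.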

Other observations

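Further antioxidant genes were measured outside the glutathione and thioredoxin systems, and 3 of 6 were detected. The sestrin SESN1 differed by 0.43 between the treated and control pools, catalase (CAT) by 0.22 on its representing probe set and -0.30 on another, and the cytosolic superoxide dismutase SOD1 by -0.15. Opposite side against control, CAT differed by 0.34 and SESN1 by 0.28. None passed 1.5-fold in the 3 comparisons.

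The genes whose pattern over the 3 pool means was nearest to that of AKR1B10, by Euclidean distance of centred log2 means, were DTWD1, FAM13A-AS1, SDCBP2-AS1, FAM86B2-DT and MARVELD3, at distances of 0.06 to 0.07. Their treated minus control differences ran from -0.73 to -0.89. With 3 points a gene, such a match describes these pools only. For HMOX1 the same rule gave GTF2E1, KDM6B, RFC2, RND1 and GPRC5C. The representing probe sets of these 5 had the same mean in all 3 pools, at levels from 5.03 to 6.00. For a gene without a difference between pools, the rule can return only such genes. How far their single arrays varied was not compared. Of all detected probe sets 0.13% had a range of at most 0.01 over the 6 arrays.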
